A study of Mus musculus with 18 samples.

Results

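The collagen genes were followed through 3 epithelial cell populations sorted from mouse mammary glands. Members were found by matching the Entrez identifiers of the series-wide count table to mouse gene symbols and keeping every symbol of the form Col, number, a, number, except Col17a1. The rule found 43 genes among 27179 identifiers. Of these, 37 had enough counts to be tested, and the other 6 (Col6a5, Col10a1, Col19a1, Col22a1, Col24a1 and Col26a1) never exceeded 0.89 CPM (counts scaled to library size). By class the 43 comprised 11 fibrillar genes (10 tested), 6 of type IV (6 tested), 6 of type VI (5 tested), 1 of type VII (1 tested), 3 of the short-chain types VIII and X (2 tested) and 9 fibril-associated genes, called FACITs (7 tested). A further 2 multiplexins (2 tested), 3 transmembrane genes (3 tested) and 2 others (1 tested) completed the set.

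The series holds 18 bulk RNA-seq libraries from 14-week-old female mice, 1 library per mouse and population. The KO mice carried the MMTV-cre transgene and had lost Brca2 from both alleles and Trp53 from 1 allele, and the controls were labelled wildtype (WT), with 3 mice per genotype. From each mouse, fluorescence-activated sorting gave basal cells, luminal progenitors (LP) and mature luminal cells (ML), so that the 6 groups were basal KO, basal WT, LP KO, LP WT, ML KO and ML WT. The question put by this design was what the combined loss changes in each population. No group had lost Brca2 or Trp53 alone. The MMTV promoter drives cre in the mammary epithelium, and sample titles of the KO libraries say knockdown where their genotype label says KO. The strain label is worded alike for KO and WT libraries, so whether WT mice carried the transgene or floxed alleles cannot be told from it, and the labels do not say whether KO and WT mice shared litters.

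Collagens are trimeric proteins of the extracellular matrix. Network-forming type IV collagen is the backbone of the basement membrane under the mammary duct, type VII anchors that membrane to the stroma, and fibrillar collagens (types I, II, III, V, XI and others) make the fibres of the stroma, to which FACITs attach. In the mammary gland the basal, myoepithelial layer lies on the basement membrane and makes much of it, whereas luminal cells line the lumen and touch it less.

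The promoters of 4 members are printed because the results turn on them: Col4a1 and Col4a2, which share a bidirectional start, Col8a1, the collagen that fell in both luminal populations of KO mice, and Col9a1, which rose in basal KO and has 2 annotated starts. Each window holds 250 bases before and 50 bases after a transcription start, taken from RefSeq on GRCm38.p6 (mm10), and is written 5′ to 3′ on the gene's own strand. Capitals mark matches on either strand to the GC box GGGCGG, the CCAAT box CCAAT, the TATA box TATAAA or the AP-1 site TGANTCA. The Col4a1 window lies at chr8:11312777-11313076 (minus strand), Col4a2 at chr8:11312555-11312854 (plus), Col8a1 at chr16:57754688-57754987 (minus), and the Col9a1 windows at chr1:24177360-24177659 and chr1:24194953-24195252 (plus).
Col4a1: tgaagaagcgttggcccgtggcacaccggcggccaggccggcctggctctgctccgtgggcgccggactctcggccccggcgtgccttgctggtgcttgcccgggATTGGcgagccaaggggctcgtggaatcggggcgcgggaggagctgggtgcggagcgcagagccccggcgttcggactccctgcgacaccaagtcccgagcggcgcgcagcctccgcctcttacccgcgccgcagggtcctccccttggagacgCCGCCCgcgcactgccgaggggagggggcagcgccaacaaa
Col4a2: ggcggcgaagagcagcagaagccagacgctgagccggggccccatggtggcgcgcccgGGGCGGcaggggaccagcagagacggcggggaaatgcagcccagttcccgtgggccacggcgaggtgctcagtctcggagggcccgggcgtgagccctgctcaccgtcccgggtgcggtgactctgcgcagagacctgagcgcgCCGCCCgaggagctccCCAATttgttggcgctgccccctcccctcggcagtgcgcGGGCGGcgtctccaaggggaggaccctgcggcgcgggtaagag
Col8a1: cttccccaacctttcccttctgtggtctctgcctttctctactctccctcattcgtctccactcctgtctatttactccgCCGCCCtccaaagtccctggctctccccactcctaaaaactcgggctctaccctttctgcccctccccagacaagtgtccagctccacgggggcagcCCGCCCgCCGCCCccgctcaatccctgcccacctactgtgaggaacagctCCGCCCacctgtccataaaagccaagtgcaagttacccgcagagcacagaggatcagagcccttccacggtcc
Col9a1, first start: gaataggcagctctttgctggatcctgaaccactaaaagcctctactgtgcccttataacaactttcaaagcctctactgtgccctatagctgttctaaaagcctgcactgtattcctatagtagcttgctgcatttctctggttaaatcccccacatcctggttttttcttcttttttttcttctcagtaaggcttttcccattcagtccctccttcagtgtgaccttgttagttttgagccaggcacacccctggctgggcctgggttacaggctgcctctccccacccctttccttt
Col9a1, second start: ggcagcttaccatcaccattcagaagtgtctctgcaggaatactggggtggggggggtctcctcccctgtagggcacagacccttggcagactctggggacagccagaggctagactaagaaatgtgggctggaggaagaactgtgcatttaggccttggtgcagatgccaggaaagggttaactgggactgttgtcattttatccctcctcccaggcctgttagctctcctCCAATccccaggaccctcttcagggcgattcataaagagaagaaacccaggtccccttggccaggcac
The Col4a1 and Col4a2 starts are 21 bases apart on opposite strands, and their windows overlap by 78 bases. The Col8a1 window held 4 GC boxes, Col4a2 held 3 with 1 CCAAT box, and Col4a1 held 1 of each. The first Col9a1 window held none of the 4 motifs. RefSeq windows were matched for 34 of the 43 collagens (37 windows). A GC box was found in 23 of the 37 windows against 35.7% of all 32851 promoters, a CCAAT box in 12 against 37.4%, a TATA box in 4 against 13.6% and an AP-1 site in 1 against 7.81%. Each motif was searched on its own, so matches of different motifs could share bases, and a match describes the letters alone.

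Libraries held 5973389 to 39194603 counts, and in LP the genotypes did not overlap in depth (22416572 to 32724291 counts in KO, 9285139 to 16167003 in WT). Trp53, read as the check of the genotype label, was lower in KO each time: basal KO libraries held 13.7 to 35.8 CPM against 57 to 88.7 in basal WT, LP KO held 7.25 to 9.05 against 67.1 to 150 in LP WT, and ML KO held 13.6 to 17 against 39.6 to 49.2 in ML WT. These values check the direction alone. The fall was widest in LP, and whether its size matches loss of 1 allele was not tested. Brca2, counted over the whole gene with no split into deleted and remaining exons, did not pass in basal cells, LP or ML (edgeR adjusted p = 0.68, 0.51 and 0.84). Each WT sort had the highest sum of its own markers: the summed basal list (10 genes) came to 75.8 to 159 CPM in LP WT and 22.7 to 30.1 in ML WT, against 21300 to 25300 in basal WT. The luminal progenitor list summed to 3820 to 4780 CPM in LP WT, against 167 to 583 in basal WT and 150 to 197 in ML WT. Of its 8 genes, 6 were higher in LP WT than in basal WT. The mature luminal list summed to 7250 to 9840 CPM in ML WT, against 44.8 to 57.7 in basal WT and 627 to 956 in LP WT. ML KO libraries departed from this. Their basal sum was 718 to 882 CPM (22.7 to 30.1 in ML WT, 8 of 10 genes higher), their luminal progenitor sum 464 to 1160 CPM (150 to 197 in ML WT, 6 of 8 higher) and their mature luminal sum 1700 to 4730 CPM (7250 to 9840 in ML WT, 4 of 8 lower). The mature luminal sum still set ML KO apart from LP KO (230 to 448 CPM). In bulk RNA, fewer cells of a type and less RNA per cell cannot be told apart. Levels below are CPM after TMM scaling, listed for mice 1, 2 and 3 in that order, and tests are edgeR quasi-likelihood tests over 16466 genes with Benjamini-Hochberg adjusted p and a threshold of 0.05.

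Collagens were foremost transcripts of the basal sort. All 43 together summed to 12030 ± 2160 CPM in basal KO and 8752 ± 378 CPM in basal WT, 834.8 ± 110 CPM in LP KO and 1043 ± 41.4 CPM in LP WT, and 1069 ± 299 CPM in ML KO and 1371 ± 463 CPM in ML WT (SD, n = 3 each). Collagen transcripts thus took 0.0769% to 1.39% of a library's counts. Of the 37 tested, 29 were lower and 2 higher (Col8a1 and Col9a1) in LP WT than in basal WT, where 19.8% of all genes were lower and 17.3% higher. In ML WT against basal WT, 31 were lower and 2 higher (Col8a1 and Col8a2), with 28.9% of all genes lower and 25.7% higher. The median log2 fold change over the tested collagens was -3.34 for LP and -5.67 for ML, beside 0.00 and -0.07 over all genes. Fibroblast markers other than collagens (12 genes) were also highest in the basal sort. They summed to 586 to 826 CPM in basal WT, 26.9 to 38 in LP WT and 26 to 269 in ML WT. Of the 12, 11 were lower in LP WT and 10 in ML WT than in basal WT. Their part in the collagen differences was not tested. Between the luminal populations, 13 collagens were higher and 3 lower (Col6a1, Col8a1, Col8a2) in LP WT than in ML WT, where 17.6% of all genes were higher and 16.1% lower.

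**Figure D1:**
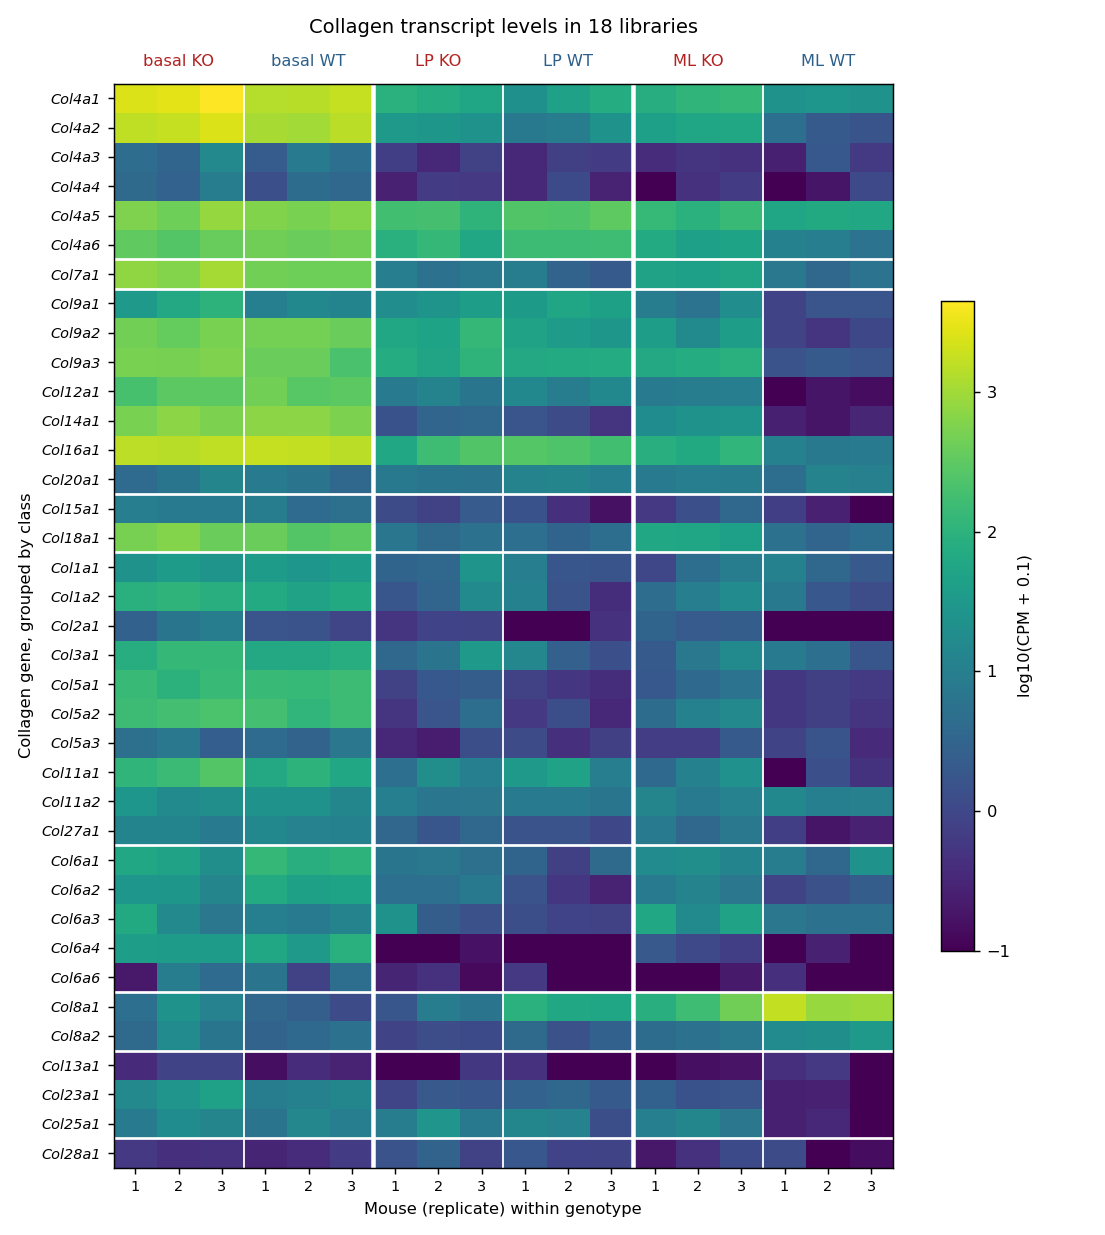
Heat map of the 37 tested collagens (rows, grouped by class in the order type IV, VII, FACIT, multiplexin, fibrillar, VI, VIII, transmembrane, other) in 18 libraries (columns), coloured by log10(CPM + 0.1). Most rows are brightest in the 6 basal columns, Col8a1 is brightest in the 3 ML WT columns (864 to 1696 CPM), and many rows are brighter in ML KO than in ML WT.

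Relative to gene length, the leading collagens differed by population. In basal KO the basement membrane chain Col4a1 stood highest at 508 ± 154 CPM per kilobase, followed by its partner Col4a2 (308 ± 76.7) and the FACIT Col16a1 (297 ± 19.3), these last 2 within each other's spread. In basal WT the order was Col16a1 (315 ± 29.1 CPM per kilobase), Col4a1 (226 ± 31.6) and Col4a2 (191 ± 39.9). Col16a1 had the highest mean in LP, at 30 ± 17.7 CPM per kilobase in LP KO and 44 ± 9.35 in LP WT. Within its spread lay Col9a2 (28.5 ± 15.5), Col9a3 (27.6 ± 9.59) and Col4a5 (24.5 ± 6.87) in LP KO, and Col4a5 (40.3 ± 6.7) in LP WT. In ML the highest mean was that of Col8a1, at 44.4 ± 36 CPM per kilobase in ML KO and 229 ± 89.8 in ML WT (SD, n = 3 each). In ML KO it ran from 17 to 85.2, so that Col9a3 (26.8 ± 4.21) lay within its spread.

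The mix of classes moved most in ML. Types VIII and X, almost wholly Col8a1, made up 20% of all collagen CPM in ML KO (10.2% to 31.3% by mouse) and 86% in ML WT (83.3% to 90%). Type IV took 32.2% in ML KO and 7.77% in ML WT, and FACITs took 23.7% in ML KO and 1.74% in ML WT, and neither range of shares overlapped between the genotypes. In LP the short-chain share was 0.764% in KO (0.348% to 1.19%) and 6.85% in WT (5.74% to 8.88%). In basal cells type IV held 51.6% of collagen CPM in KO and 42.6% in WT, with ranges (48.8% to 57.1%, and 38.7% to 48.7%) that just failed to meet.

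**Figure D2:**
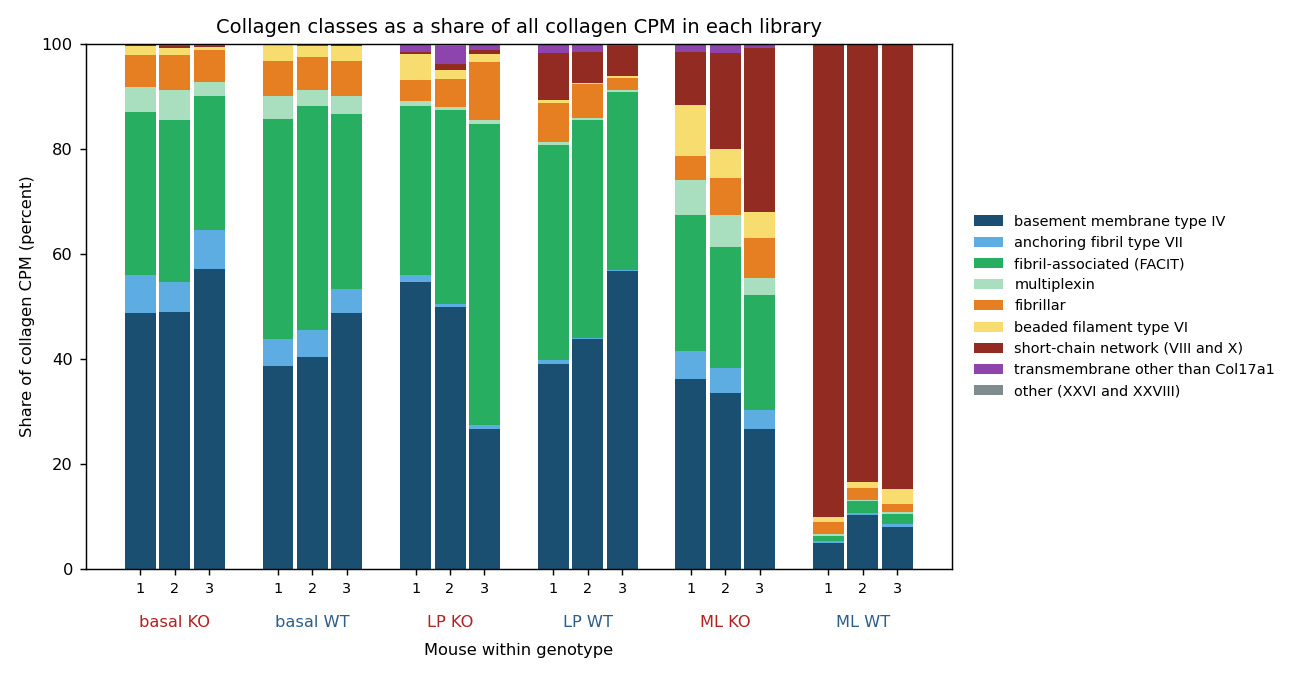
Stacked bars give each collagen class as a percent of all collagen CPM in each of the 18 libraries, with the 3 KO mice left of the 3 WT mice in each population. Types VIII and X fill 83.3% to 90% of the ML WT bars and 10.2% to 31.3% of the ML KO bars.

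Deletion of Brca2 and 1 copy of Trp53 was accompanied by collagen changes mainly in ML. In ML KO against ML WT, 22 of the 37 tested collagens rose and 2 fell, where 11.8% of all genes rose and 3.5% fell. In LP, 4 rose (Col5a1, Col6a2, Col9a2, Col14a1) and 1 fell (Col8a1), where 8.28% of all genes rose and 6.63% fell. The shares of collagens called in LP (10.8% higher and 2.7% lower) were near or under that background. In basal cells 2 rose (Col2a1, Col9a1) and none fell, where 2.96% of all genes rose and 0.188% fell, so the share of collagens called there (5.41%) was of the order of the background. The median log2 fold change over the tested collagens was 2.79 for ML (0.02 over all genes), 0.75 for LP (0.02) and 0.38 for basal cells (-0.02). At an unadjusted edgeR p under 0.05, 9 collagens were higher and 2 lower in basal KO. Over all genes, 1912 of 16466 passed that level there in either direction. DESeq2 called 5 collagens higher and 0 lower in basal KO, and limma voom 2 higher and 1 lower, with no share over all genes given for either. These counts describe collagens that passed the filter on low counts and are not a test of the family. The basal count was 5 without KO mouse 1 and 1 without KO mouse 2, KO mouse 3, WT mouse 2 or WT mouse 3, and the LP count was 3 without WT mouse 2. LP KO mouse 3 stood apart from the other LP KO libraries (chi-square per degree of freedom 182.6 and 204.3, against 48.55 between mice 1 and 2), and without it the LP count was 4. Basal WT mouse 1 stood apart likewise (166 and 122.1, against 41.17 between mice 2 and 3), and without it the basal count was 2. Immune markers summed to 144, 31.5 and 226 CPM in LP KO, against 17.4, 15.1 and 12.3 CPM in LP WT, with Cd74 and Csf1r higher (adjusted p = 0.0085 and 0.0076), and their part in the LP results was not tested.

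**Figure D3:**
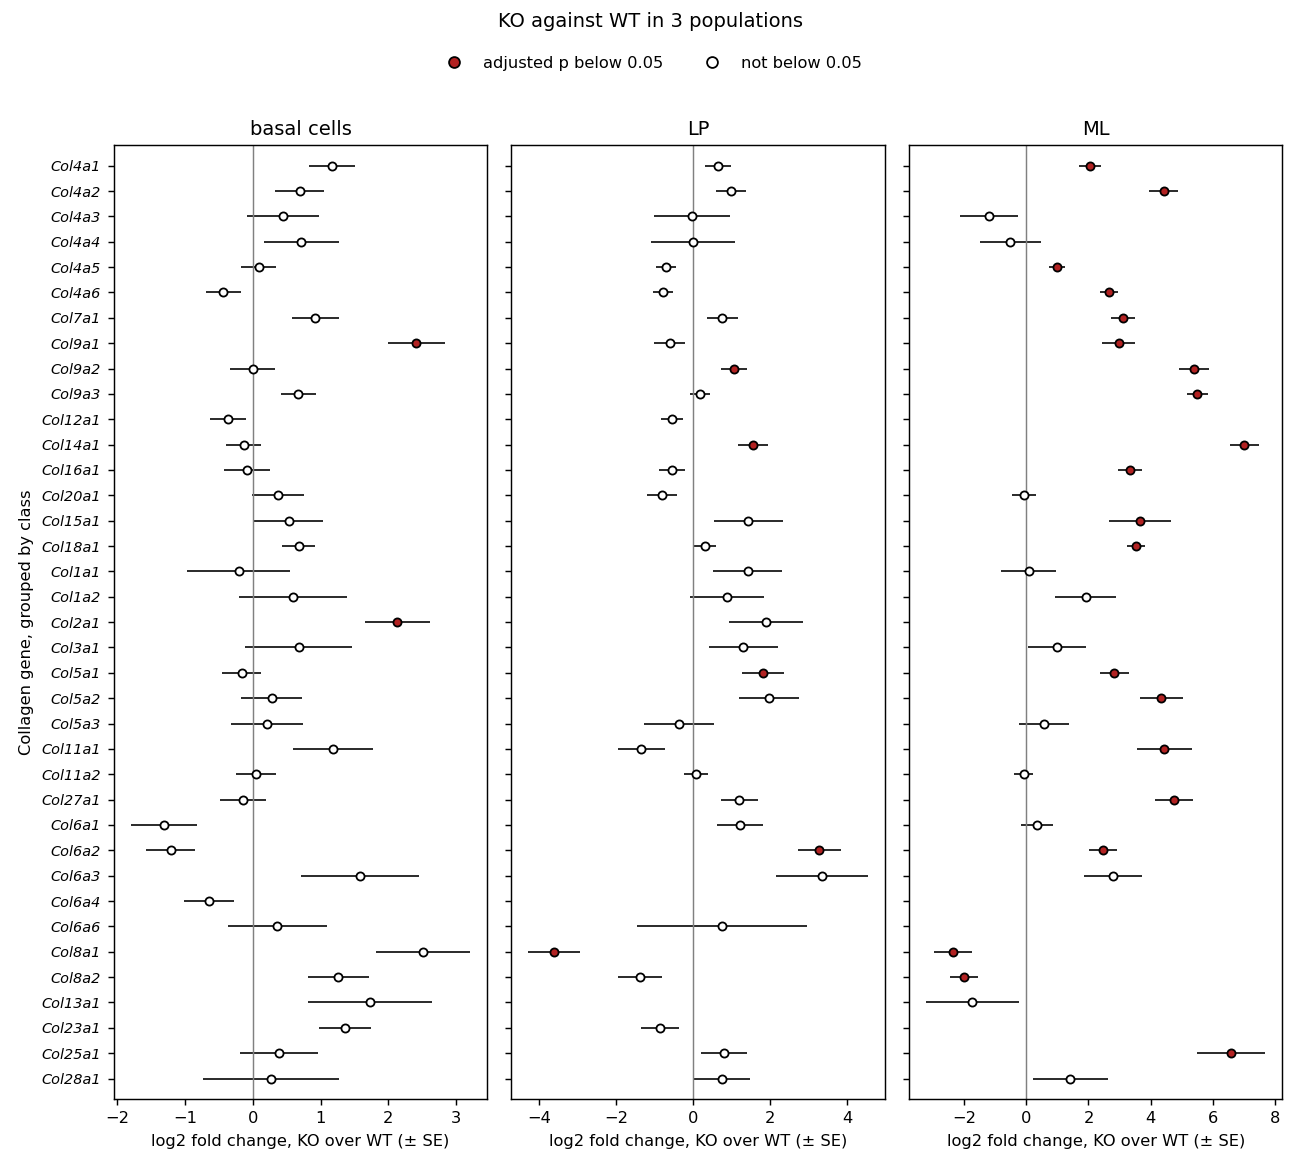
Log2 fold change of KO over WT (points) with its standard error (lines) for the tested collagens in basal cells, LP and ML. Filled points had an edgeR adjusted p below 0.05, and values for which a group held 3 counts or fewer are not drawn. The filled points number 2 in basal cells and 5 in LP, and the x axes differ between the panels.

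Type IV chains assemble as fixed trimers, with Col4a1 and Col4a2 in the common form and Col4a5 with Col4a6 in a second form found in some epithelia. In ML, 4 of the 6 chains rose in KO. Col4a1 had 80.1, 113 and 128 CPM in ML KO, against 24.2, 28.4 and 25 CPM in ML WT (log2 fold change 2.05, SE 0.36, adjusted p = 3.7e-04). Its partner Col4a2 had 42.9, 54 and 61.6 CPM in ML KO, against 4.91, 2 and 1.54 CPM in ML WT (log2 fold change 4.42, SE 0.46, adjusted p = 1.1e-06). Every ML KO library lay above every ML WT library for both chains, and Col4a2 moved further. Col4a6 had 70.2, 41.7 and 49.5 CPM in ML KO, against 10.9, 9.51 and 5.73 CPM in ML WT (log2 fold change 2.66, SE 0.30, adjusted p = 2.7e-06). For Col4a5 the levels were 130, 92.4 and 138 CPM in ML KO, against 54.3, 67.9 and 58.4 CPM in ML WT (log2 fold change 0.99, SE 0.26, adjusted p = 0.014). The groups were again separate, but the Col4a5 call sat near the threshold: without KO mouse 1, KO mouse 3, WT mouse 1 or WT mouse 3 its adjusted p was 0.05, 0.052, 0.057 and 0.054.

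In basal cells, where type IV was most abundant, no chain passed. Col4a1 had 2618, 2932 and 4522 CPM in basal KO, against 1343, 1404 and 1731 CPM in basal WT (log2 fold change 1.17, SE 0.34, adjusted p = 0.07). Col4a2 had 1628, 1767 and 2543 CPM in basal KO, against 1121, 1037 and 1517 CPM in basal WT (adjusted p = 0.50). KO libraries were above WT libraries for both without overlap, KO mouse 3 being the highest. Col4a5 overlapped between the genotypes at 572, 426 and 821 CPM in basal KO, against 591, 517 and 607 CPM in basal WT, and Col4a6 was 333, 257 and 369 CPM in basal KO, against 449, 396 and 451 CPM in basal WT (adjusted p = 0.63).

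In LP the same chains did not pass either. Col4a1 stood at 93.7, 77.4 and 56.2 CPM in LP KO, against 21.6, 46.5 and 76.9 CPM in LP WT, and Col4a2 at 32, 28.8 and 23.3 CPM in LP KO, against 7.4, 9.01 and 25 CPM in LP WT (adjusted p = 0.21 and 0.085). WT mouse 3 reached into the KO range for both. Col4a5 was 177, 192 and 108 CPM in LP KO, against 242, 232 and 312 CPM in LP WT, and Col4a6 was 88.5, 124 and 61.3 CPM in LP KO, against 153, 157 and 162 CPM in LP WT (adjusted p = 0.068 and 0.052). KO was below WT without overlap for this pair, the opposite side from ML. The third pair, Col4a3 and Col4a4, which form part of the glomerular trimer, stayed low. Col4a3 ran from 0.158 to 15.3 CPM over the 18 libraries and Col4a4 from 0 to 9.38, both highest in basal KO mouse 3, and neither passed in a KO against WT comparison.

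The paired chains did not keep one ratio. Per kilobase, Col4a1 over Col4a2 was 1.63 ± 0.0847 in basal KO and 1.2 ± 0.107 in basal WT, 2.6 ± 0.251 in LP KO and 3.61 ± 1.22 in LP WT, and 1.95 ± 0.122 in ML KO and 11.5 ± 5.85 in ML WT (SD, n = 3 each). By mouse the ML ratios were 1.81, 2.03 and 2.02 in KO, against 4.79, 13.8 and 15.8 in WT, without overlap. Col4a5 over Col4a6 was 1.91 ± 0.319 in basal KO and 1.35 ± 0.022 in basal WT, 1.81 ± 0.233 in LP KO and 1.7 ± 0.241 in LP WT, and 2.33 ± 0.476 in ML KO and 7.6 ± 2.68 in ML WT. In ML KO both ratios were thus nearer to the basal values than in ML WT. The annotated Col4a1 and Col4a2 genes overlap at their starts, as do Col4a3 and Col4a4, and the strand setting of the counting is not stated in the labels or headers, so reads from the overlap are of uncertain origin.

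Type VII collagen, the anchoring fibril encoded by Col7a1, and the multiplexin Col18a1, whose product sits in basement membranes and releases endostatin, followed type IV in ML. Col7a1 had 47.4, 41.6 and 51.7 CPM in ML KO, against 7.13, 3.5 and 5.82 CPM in ML WT (log2 fold change 3.12, SE 0.39, adjusted p = 1.2e-05). Col18a1 had 58.3, 53.4 and 42 CPM in ML KO, against 5.54, 3.17 and 4.75 CPM in ML WT (log2 fold change 3.53, SE 0.30, adjusted p = 1.0e-07). Neither gene overlapped between the genotypes in ML. In LP both overlapped: Col7a1 was 9.67, 5.35 and 7.31 CPM in LP KO, against 9.01, 2.89 and 2.02 CPM in LP WT, and Col18a1 was 6.67, 3.99 and 5.27 CPM in LP KO, against 4.93, 3 and 4.78 CPM in LP WT. In basal cells Col7a1 was 768, 626 and 1076 CPM in KO, against 459, 423 and 419 CPM in WT, and Col18a1 was 504, 611 and 392 CPM in KO, against 387, 256 and 302 CPM in WT. KO was above WT for both without overlap, yet neither passed (adjusted p = 0.21 for each). The other multiplexin, Col15a1, was lower throughout. It rose in ML, at 0.496, 1.27 and 3.68 CPM in ML KO, against 0.634, 0.167 and 0 CPM in ML WT (log2 fold change 3.65, SE 1.0, adjusted p = 0.018). The ranges overlapped, and its adjusted p was 0.11 without KO mouse 3, 0.16 without WT mouse 3, 0.076 without WT mouse 2 and 0.063 with thinning.

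FACITs sit on the surface of collagen fibrils. They held the ML changes of lowest p, with 6 of 7 tested members higher in ML KO and a median log2 fold change of 5.39. Col14a1, known from dense connective tissue, had 18.6, 23.1 and 25.4 CPM in ML KO, against 0.158, 0.0834 and 0.214 CPM in ML WT (log2 fold change 7.02, SE 0.47, adjusted p = 7.2e-10). Col9a3, a chain of the type IX collagen best known from cartilage, had 65.2, 74.9 and 89 CPM in ML KO, against 1.43, 2 and 1.58 CPM in ML WT (log2 fold change 5.50, SE 0.34, adjusted p = 1.3e-09). Both genes were near 0 in ML WT and well above that level in each ML KO mouse. Its partner Col9a2 had 39.1, 16.8 and 39.6 CPM in ML KO, against 0.792, 0.417 and 0.941 CPM in ML WT (log2 fold change 5.39, SE 0.49, adjusted p = 2.2e-07). Col16a1, found in fibrillin-rich and basement membrane zones, had 84.7, 68.5 and 117 CPM in ML KO, against 11.2, 7.42 and 8.47 CPM in ML WT (log2 fold change 3.34, SE 0.39, adjusted p = 4.7e-06). For Col12a1 the 3 ML KO libraries held 8.63, 8.97 and 9.77 CPM, against 0, 0.0834 and 0.0428 CPM in ML WT. The groups were far apart for each of these. Since ML WT had only 2 Col12a1 counts in all, beside 659 in ML KO, its size is best given as a ratio of 192 with a 95% counting interval of 52.9 to 1590 (adjusted p = 3.5e-08). Col20a1 was the tested FACIT that did not pass, at 7.74 to 9.75 CPM in ML KO, against 4.75 to 11.8 CPM in ML WT.

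Outside ML the FACITs split. Col9a1 rose in basal cells, with 32.9, 64.6 and 104 CPM in basal KO, against 10.3, 14.8 and 12.5 CPM in basal WT (log2 fold change 2.41, SE 0.42, adjusted p = 0.0016). It rose in ML too, with 8.83, 5.71 and 18.9 CPM in ML KO, against 0.792, 1.58 and 1.58 CPM in ML WT (log2 fold change 2.97, SE 0.52, adjusted p = 4.4e-04), while LP held 19.1, 25.9 and 40.8 CPM in KO, against 33.9, 54 and 43.6 CPM in WT (adjusted p = 0.32). KO lay clear above WT in basal cells and ML, and in LP the genotypes overlapped. The other type IX chains differed from it in basal cells: Col9a2 was 463, 361 and 513 CPM in basal KO, against 479, 473 and 384 CPM in basal WT (adjusted p = 1), and Col9a3 was 516, 495 and 567 CPM in basal KO, against 385, 395 and 211 CPM in basal WT (log2 fold change 0.67, SE 0.26, adjusted p = 0.23). Col9a1 was also the collagen that stood above basal WT in LP WT (log2 fold change 1.80, SE 0.42, adjusted p = 0.0020) together with Col8a1. The Col9a3 gene overlaps Tcfl5 in the annotation, so its counts share that uncertainty of strand.

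In LP, Col9a2 and Col14a1 rose by smaller amounts. Col9a2 had 58.5, 49.2 and 127 CPM in LP KO, against 48.9, 35.1 and 29.1 CPM in LP WT (log2 fold change 1.06, SE 0.34, adjusted p = 0.042). KO mouse 3 stood alone at the top, and without it the log2 fold change was 0.52 (adjusted p = 0.31). Without WT mouse 2 or WT mouse 3 the adjusted p was 0.13 and 0.12, and it was 0.053 with RLE scaling, 0.056 with the earlier edgeR method, 0.072 with limma voom and 0.13 with the compared libraries only. Col14a1 had 1.42, 3.26 and 3.49 CPM in LP KO, against 1.6, 1.11 and 0.429 CPM in LP WT (log2 fold change 1.55, SE 0.40, adjusted p = 0.013). KO mouse 1 overlapped WT, and the call was lost without WT mouse 3 (adjusted p = 0.098), with limma voom (0.072) and with the compared libraries only (0.16). Col16a1 and Col12a1 did not pass in LP or in basal cells.

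**Figure D4:**
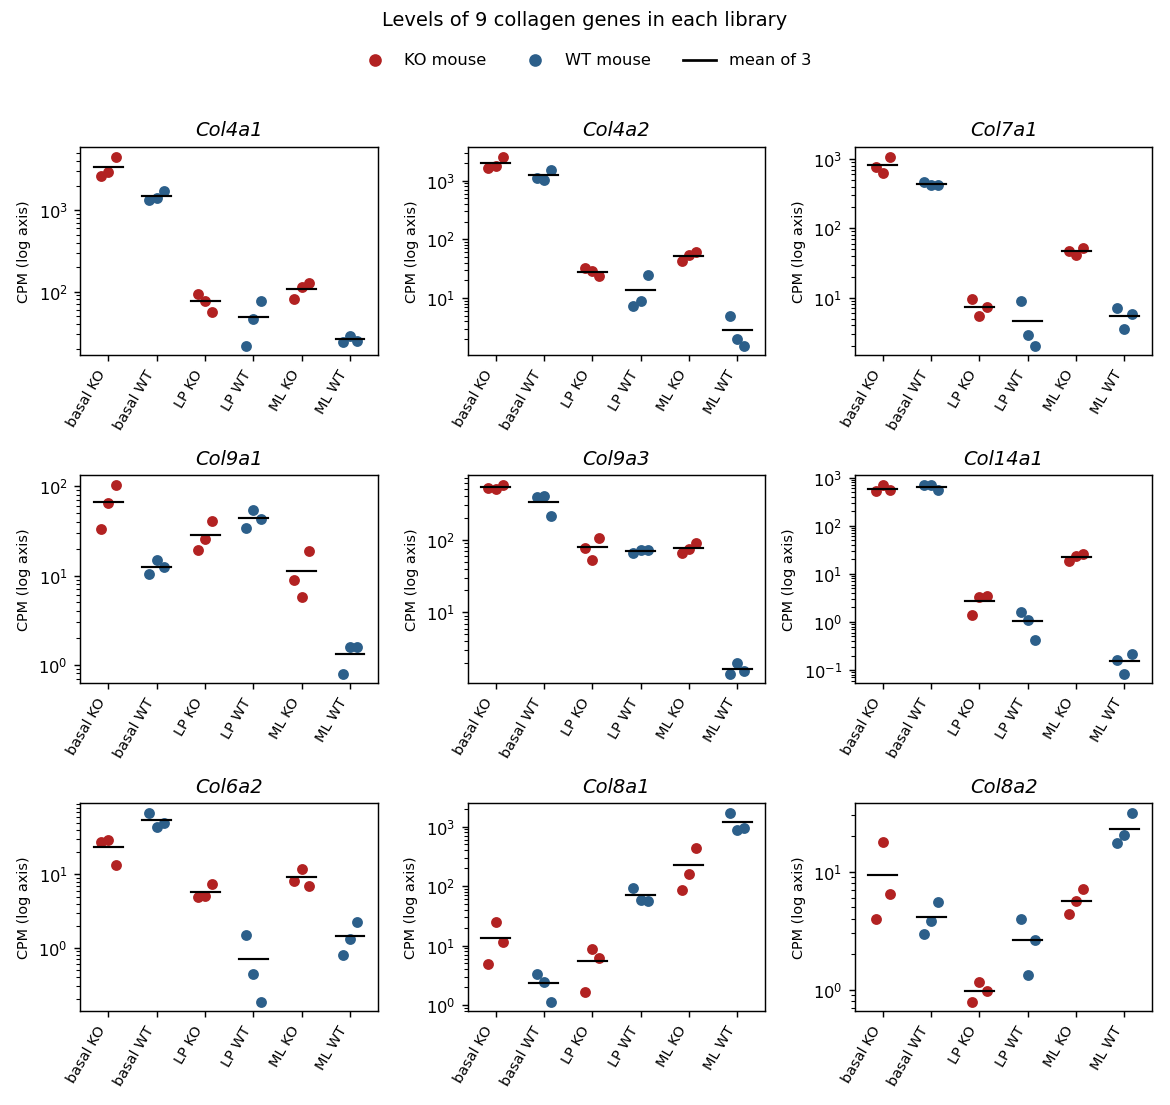
CPM (log axis) of 9 collagens in each library, by group, with KO left of WT in each population; points are mice and bars are means of 3. Col4a1, Col4a2, Col7a1, Col9a3 and Col14a1 stand higher in ML KO than in ML WT, Col8a1 and Col8a2 stand lower, and Col9a1 stands higher in basal KO than in basal WT.

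Fibrillar collagens make the tensile fibres of the stroma. The classical stromal chains Col1a1, Col1a2 and Col3a1 did not pass in any population. Col1a2 was 4.46, 9.8 and 17.3 CPM in ML KO, against 7.6, 1.75 and 1.15 CPM in ML WT (log2 fold change 1.91, SE 0.99, adjusted p = 0.22), and Col1a1 was 0.893, 4.8 and 8.86 CPM in ML KO, against 11.1, 3.67 and 1.92 CPM in ML WT. Both overlapped between the genotypes. In LP these 3 chains were carried by single libraries. KO mouse 3 held 25.3 CPM of Col1a1, 16.6 of Col1a2 and 32.5 of Col3a1, where KO mice 1 and 2 held 1.67 to 5.97 CPM of each, and WT mouse 1 held 9.75, 11.2 and 14.4 CPM of the same genes, where the other WT mice held 0.306 to 2.56. The fibroblast marker list without collagens (12 genes) summed to 10.5, 50.7 and 35 CPM in LP KO, against 26.9, 38 and 31 CPM in LP WT, of which Dcn alone gave 1.92, 40.2 and 11.1 CPM in LP KO. The list sum was highest in KO mouse 2 and, within LP WT, lowest in mouse 1, the WT mouse highest for these collagens. Some other markers of the list, named here for their peak, were highest in LP KO mouse 3, as these collagens were. Pdgfra, Fbn1, Fap, Fbln1, Lsp1 and Cygb are not reported here by library. Of the 12 markers, 0 passed in LP KO against LP WT. Lum was 0.0417, 0.195 and 2.57 CPM and Dpt 0.292, 0.669 and 2.77 CPM in LP KO, and Clec3b, Pi16 and Mfap5 peaked in the same library at 2.4, 2.57 and 1.15 CPM. Their part in the collagen values was not tested.

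Of the 10 tested fibrillar genes 5 rose in ML: Col2a1, Col5a1, Col5a2, Col11a1 and Col27a1. The type V chain Col5a3 was 0.595, 0.607 and 1.98 CPM in ML KO, against 0.792, 1.5 and 0.257 CPM in ML WT, and the type XI chain Col11a2 was 12.9, 8.39 and 11.5 CPM in ML KO, against 14.7, 10 and 10.4 CPM in ML WT. Both overlapped and did not pass (adjusted p = 0.69 and 0.88). Col5a2 had 4.36, 11.2 and 15.3 CPM in ML KO, against 0.475, 0.667 and 0.428 CPM in ML WT (log2 fold change 4.35, SE 0.70, adjusted p = 1.9e-04). Col5a1 had 1.79, 3.81 and 5.81 CPM in ML KO, against 0.475, 0.667 and 0.513 CPM in ML WT (log2 fold change 2.83, SE 0.47, adjusted p = 2.0e-04). These partner chains of type V, which set the diameter of type I fibrils, were separate between the genotypes. Col11a1 (adjusted p = 0.0020) and Col27a1 (adjusted p = 8.4e-06) rose as well, to 3.87 to 22.2 CPM and 3.64 to 8.13 CPM in ML KO, against 0 to 1.25 CPM and 0.0834 to 0.634 CPM in ML WT. In basal cells, where Col5a2 was 153, 183 and 217 CPM in KO, against 186, 115 and 155 CPM in WT, the type V chains overlapped. In LP, Col5a1 had 0.709, 1.78 and 2.31 CPM in KO, against 0.74, 0.445 and 0.306 CPM in WT (log2 fold change 1.82, SE 0.55, adjusted p = 0.029). KO mouse 1 fell within the WT range, and the adjusted p was 0.053 without KO mouse 2, 0.11 without KO mouse 3, 0.099 without WT mouse 2 and 0.13 without WT mouse 3. With limma voom it was 0.12 and with the compared libraries only 0.13.

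Col2a1, the main fibrillar collagen of cartilage, was low and rose in 2 populations. It had 2.65, 6.39 and 8.94 CPM in basal KO, against 1.56, 1.47 and 0.848 CPM in basal WT (log2 fold change 2.13, SE 0.48, adjusted p = 0.013). The groups did not overlap, but the adjusted p was 0.056 without KO mouse 2, 0.078 without KO mouse 3, and 0.068 without WT mouse 2 or WT mouse 3. It was also above the threshold with the earlier edgeR method (0.095), the compared libraries only (0.051) and thinning (0.08), so that the call was lost in 7 of 14 settings. In ML it had 3.07, 2.07 and 2.25 CPM in KO and no count in any WT library (adjusted p = 2.7e-04). With 163 counts in ML KO and a floor of 3 counts over the ML WT group, it was at least 31.6-fold higher in ML KO. In LP, Col2a1 was 0.417 to 0.791 CPM in KO (61 counts), against 0 to 0.368 CPM in WT (6 counts). KO lay above WT there without overlap and without passing.

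Type VI collagen forms beaded filaments around cells and, in most tissues, is a product of fibroblasts. Col6a2 lay on opposite sides in basal and luminal cells, as Col8a1 did in the other direction. It had 4.88, 5.02 and 7.51 CPM in LP KO, against 1.48, 0.445 and 0.184 CPM in LP WT (log2 fold change 3.28, SE 0.56, adjusted p = 7.6e-04). The ML libraries had 8.23, 12 and 7.04 CPM in KO, against 0.792, 1.33 and 2.27 CPM in WT (log2 fold change 2.47, SE 0.45, adjusted p = 5.7e-04). KO exceeded WT without overlap in both. In basal cells Col6a2 was 27.8, 29.3 and 13.3 CPM in KO, against 68.9, 44.5 and 50.2 CPM in WT (log2 fold change -1.21, SE 0.36, adjusted p = 0.075). Col6a1 was likewise 58.1, 47.3 and 19.6 CPM in basal KO, against 126, 82.4 and 104 CPM in basal WT (log2 fold change -1.31, SE 0.49, adjusted p = 0.22). Both basal values lay below WT without overlap and without passing. In the luminal populations Col6a1 was 6.25, 7.33 and 5.11 CPM in LP KO, against 3.08, 0.667 and 3.92 CPM in LP WT, and 17.3, 19.7 and 12.3 CPM in ML KO, against 9.19, 3.67 and 24.7 CPM in ML WT (adjusted p = 0.18 and 0.71).

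Col6a3, the largest chain of the trimer, was highest in KO mouse 1 in each population. Its basal, LP and ML libraries held 66.8, 23.9 and 59 CPM. KO mouse 2 held 15.5, 2.26 and 16.2 CPM in the same order, KO mouse 3 held 6.87, 1.32 and 49 CPM, and WT libraries ran from 0.736 to 11.9. It did not pass in a KO against WT comparison (adjusted p = 0.56 for basal cells, 0.07 for LP and 0.054 for ML). Col6a4 rose in ML, with 70 counts in KO and 2 in WT over the groups, a ratio of 20.4 with a 95% counting interval of 5.43 to 172 (adjusted p = 0.014, and 0.11 without WT mouse 3).

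Col8a1, which fell in both luminal populations, encodes a short-chain collagen that builds hexagonal networks, best known from the basement membranes of cornea and vessel wall. In ML it had 87.1, 159 and 435 CPM in KO, against 1696, 864 and 944 CPM in WT (log2 fold change -2.36, SE 0.62, adjusted p = 0.016). In LP it had 1.67, 8.84 and 6.09 CPM in KO, against 92.8, 59.2 and 55.8 CPM in WT (log2 fold change -3.62, SE 0.67, adjusted p = 0.0023). KO was below WT without overlap in both luminal populations. In ML the KO mice spread widely, with mouse 3 the highest, and the adjusted p was 0.072 without KO mouse 1, 0.069 without KO mouse 2 and 0.062 without WT mouse 1. In basal cells, where it was scarce, Col8a1 had 4.92, 24.6 and 11.3 CPM in KO, against 3.38, 2.44 and 1.13 CPM in WT, above WT without overlap and without passing (log2 fold change 2.51, SE 0.70, adjusted p = 0.067). The mature luminal marker sum was also lower in KO, at 1700 to 4730 CPM in ML KO, against 7250 to 9840 CPM in ML WT, and at 230 to 448 CPM in LP KO, against 627 to 956 CPM in LP WT. None of its 8 markers was at 0, and their part in the Col8a1 result was not tested.

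Its relative Col8a2 fell in ML, with 4.36, 5.63 and 7.08 CPM in ML KO, against 17.3, 20.4 and 31.4 CPM in ML WT (log2 fold change -2.01, SE 0.44, adjusted p = 0.0033). The groups were separate. In LP it was 0.792, 1.17 and 0.988 CPM in KO, against 3.95, 1.33 and 2.64 CPM in WT, and in basal cells 4, 17.7 and 6.43 CPM in KO, against 2.96, 3.84 and 5.56 CPM in WT (adjusted p = 0.10 and 0.19).

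Among the transmembrane collagens, Col23a1 and Col25a1 rose in ML. Col25a1, a brain-enriched member, was 6.8 to 13.4 CPM in ML KO, against 0 to 0.25 CPM in ML WT (log2 fold change 6.60, SE 1.1, adjusted p = 2.4e-04). Col23a1 had 2.68, 1.38 and 1.62 CPM in ML KO, against 0.158, 0.167 and 0 CPM in ML WT, which is 118 counts beside 3 and a ratio of 22.9 with a 95% counting interval of 7.65 to 113 (adjusted p = 0.0019). ML KO held more of both in every mouse. In basal cells Col23a1 was 15.7, 26.2 and 45.6 CPM in KO, against 9.15, 11.2 and 13.8 CPM in WT, just outside the threshold (adjusted p = 0.051). In LP it was 0.834, 1.87 and 1.65 CPM in KO, against 2.84, 3.45 and 2.02 CPM in WT (adjusted p = 0.24). Col28a1 stayed at or below 2.98 CPM in every library and did not pass.

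The collagens that rose in ML KO were set beside the basal cells of the same genotype. As a percent of the basal KO mean, the 22 risers stood at a median of 7.2% (2.67% to 77.4%) in ML KO, and as a percent of basal WT at a median of 0.836% (0% to 10.5%) in ML WT. The 10 basal marker genes stood at a median of 2.86% in ML KO, ranging from 0.345% to 12.4%, and in ML WT at 0.119%, ranging from 0.035% to 0.591%. The risers were chosen by this contrast, so their gap between genotypes is a description. The same holds for their level in ML KO beside the basal markers, which were not chosen by their rise. Within ML KO the values were not uniform. The keratins Krt5 and Krt14 stood at 9.7% and 7.24% of basal KO and the transcription factor Trp63 at 12.4%, whereas the contractile genes Acta2, Myh11 and Cnn1 stood at 0.584%, 0.422% and 0.345%. Among collagens Col4a2, Col5a1 and Col6a4 were lowest at 2.67%, 3.01% and 3.05%, and Col25a1 and Col27a1 highest at 77.4% and 56.3%. Col17a1, the hemidesmosome collagen outside the rule, stood at 10% in ML KO and 0.0702% in ML WT. LP gave a second reference. The 13 collagens higher in LP WT than in ML WT were all among the 22 risers. Both comparisons share the ML WT libraries, so a gene low there can enter both lists. Over all genes 17.6% were higher in LP WT than in ML WT and 11.8% rose in ML KO. The share of all genes in both lists was not computed, so this overlap is a description only. The luminal progenitor marker sum was higher too (464 to 1160 CPM in ML KO, against 150 to 197 in ML WT). Col25a1 stood at 111% of the basal KO mean in LP KO. The part of basal or luminal progenitor transcripts from other cells in the ML KO rises was not tested.

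**Figure D5:**
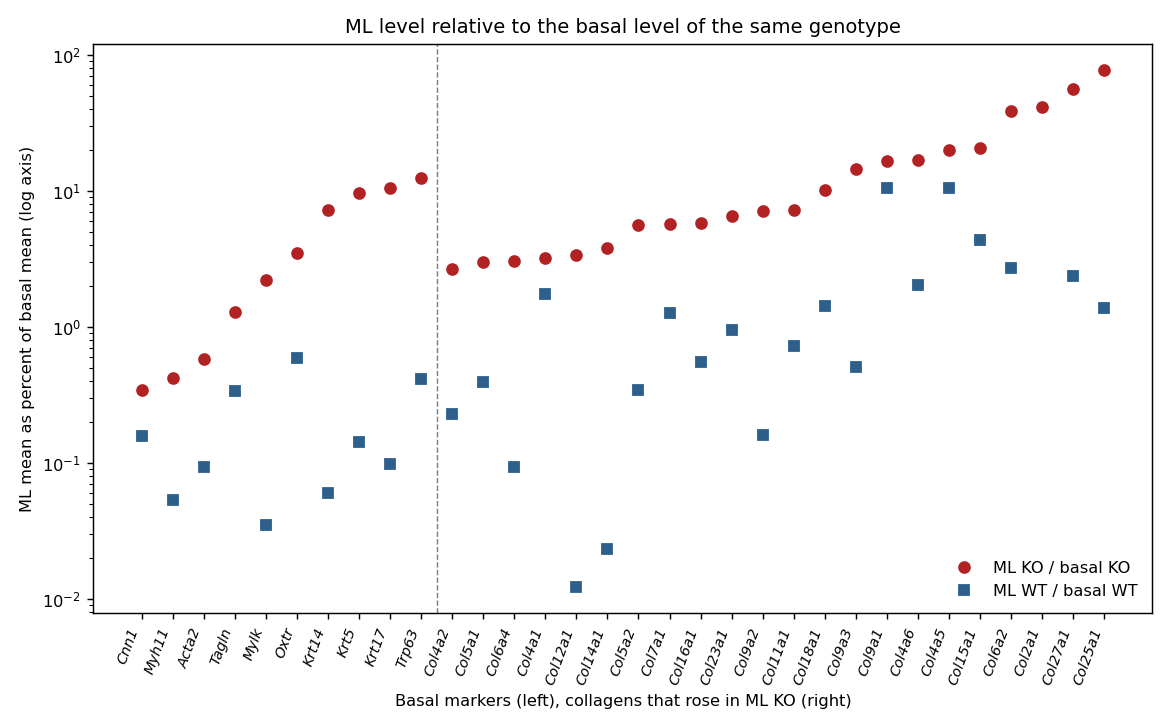
Mean level in ML as a percent of the mean level in basal cells of the same genotype (log axis), for 10 basal markers left of the dashed line and the 22 collagens that rose in ML KO right of it. Red circles are ML KO over basal KO, blue squares ML WT over basal WT, and Col2a1, listed at 0 in ML WT, has no square. In ML KO the markers span 0.345% to 12.4% and the collagens, chosen for their rise there, 2.67% to 77.4%.

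Markers of cells outside the epithelium gave the following sums in ML. The fibroblast list summed to 89.9 to 384 CPM in ML KO, against 26 to 269 CPM in ML WT, with 2 of 12 genes higher, while the endothelial list summed to 75.9 to 164 CPM in ML KO, against 167 to 248 CPM in ML WT. Pericyte markers came to 173 to 249 CPM in ML KO, against 170 to 317 CPM in ML WT (Kcnj8 at 0 in ML WT), and Schwann cell markers to 84.2 to 116 CPM in ML KO, against 52.4 to 136 CPM in ML WT (Foxd3 at 0 in ML WT). Immune markers came to 8.81 to 57.8 CPM in ML KO, against 3.8 to 6.01 CPM in ML WT, where the defining markers Cd3e and Tyrobp were among those at 0, and adipocyte markers to 5.94 to 20.6 CPM in ML KO (Lep at 0), against 4.84 to 9.5 CPM in ML WT (Adipoq at 0). The endothelial sums, lower in ML KO, and the immune sums, higher in ML KO, were separate between the genotypes, and the other 4 overlapped. Single genes carried some sums: Vwf gave 64.7, 155 and 141 CPM of the endothelial sum in ML KO, against 147, 234 and 215 CPM in ML WT, and Notch3 gave 170, 246 and 217 CPM of the pericyte sum in ML KO, against 169, 265 and 315 CPM in ML WT. Of the 9 endothelial markers, Tek rose in ML KO, by 2.21 on the log2 scale (edgeR adjusted p = 0.022), and Egfl7 fell. The median log2 fold change of that list was -0.56. In basal cells the fibroblast sums were close, at 637 to 744 CPM in KO and 586 to 826 CPM in WT. Their part in the collagen results was not tested.

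Whether the genotype effect itself differed between populations was tested as an interaction. In ML minus basal cells, 15 of the 37 tested collagens had a more positive and 2 a more negative effect, where 4.5% and 1.03% of all genes did. Those of lowest p were Col14a1 (log2 difference 7.16, SE 0.55, adjusted p = 3.9e-08), Col9a3 (4.83, SE 0.42, adjusted p = 3.5e-07), Col12a1 (adjusted p = 3.0e-07), Col9a2 (5.39, SE 0.60, adjusted p = 8.3e-06) and Col4a6 (3.10, SE 0.40, adjusted p = 4.3e-05). Both short-chain genes went the other way, Col8a1 by -4.87 (SE 0.94, adjusted p = 0.0035) and Col8a2 by -3.27 (SE 0.63, adjusted p = 0.0025). In LP minus ML, none was more positive and 15 were more negative, where 1.22% and 5.15% of all genes were. At an unadjusted edgeR p under 0.05, 0 were more positive and 17 more negative. Over all genes, 3490 of 16466 passed that level in either direction. DESeq2 and limma voom each called 0 collagens more positive. Col9a3 (-5.31, SE 0.42, adjusted p = 2.4e-07) and Col4a6 (-3.45, SE 0.40, adjusted p = 1.7e-05) were among the 15 more negative. Col8a1 was not (-1.26, SE 0.86, adjusted p = 0.43), although its fall was larger in LP.

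In LP minus basal cells 3 collagens differed, where 0.389% of all genes had a more positive and 0.704% a more negative effect. Col6a2 was more positive in LP (log2 difference 4.48, SE 0.67, adjusted p = 0.0019). Col8a1 was more negative (-6.13, SE 0.97, adjusted p = 0.0048), as was Col9a1 (-3.03, SE 0.58, adjusted p = 0.011). With the mouse as a block, since the 3 libraries of a mouse are paired, 8 collagens were called, these 3 among them, and without basal KO mouse 1 the count was 5. The ML minus basal and LP minus ML counts were 17 and 15 and moved less than 1.5 times with the block. The interactions share libraries with each other and with the comparisons above. Losing WT mouse 3 of ML cost the calls of Col25a1 (adjusted p = 0.082, and 0.072 with limma voom) and Col27a1 (0.076) in LP minus ML and of Col25a1 (0.051) and Col6a4 (0.096) in ML minus basal, and losing LP WT mouse 1 cost that of Col7a1 in LP minus ML (0.08).

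Collagen maturation needs enzymes of the endoplasmic reticulum, extracellular proteases and cross-linkers, and these genes were examined as lists. Of 15 hydroxylases and glycosyltransferases, 3 rose and 1 fell in ML KO. Counts of this kind stand against the 11.8% of all genes that rose and the 3.5% that fell in ML. Plod2, which hydroxylates telopeptide lysines, had 5.36, 12.6 and 13.3 CPM in ML KO, against 0, 0 and 0.428 CPM in ML WT (log2 fold change 5.50, SE 0.65, adjusted p = 2.6e-06), and P3h2, a prolyl 3-hydroxylase acting on type IV chains, rose by 5.23 (SE 0.78, adjusted p = 4.6e-05). Of 9 chaperone and export genes 2 rose and 1 fell (Mia2, -1.30, adjusted p = 0.041). Serpinh1, the collagen chaperone HSP47, had 103, 90.7 and 127 CPM in ML KO, against 29.9, 42.2 and 33.2 CPM in ML WT (log2 fold change 1.60, SE 0.27, adjusted p = 3.2e-04), while in basal cells it was 604, 897 and 854 CPM in KO, against 567, 986 and 666 CPM in WT. ML KO stood clear of ML WT for Plod2 and Serpinh1. The median log2 fold change of the hydroxylase list in ML was 0.071 and of the chaperone list -0.22, beside 0.02 over all genes.

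Of 7 tested propeptide processing genes 2 rose and 1 fell in ML, and of 7 cross-linking enzymes 2 rose. Pcolce, an enhancer of procollagen C-proteinase, was the one that fell, at 3.17, 2.82 and 4.03 CPM in ML KO, against 10.9, 9.59 and 14.8 CPM in ML WT (log2 fold change -1.83, SE 0.33, adjusted p = 4.7e-04). The lysyl oxidases Lox and Loxl3 rose by 3.49 (SE 0.84, adjusted p = 0.0053) and 2.56 (SE 0.44, adjusted p = 3.2e-04). Loxl3 rose in LP as well (1.75, SE 0.46, adjusted p = 0.015). Of 8 tested collagen receptors 3 rose in ML: Ddr2, a receptor kinase for fibrillar collagen (4.35, SE 0.77, adjusted p = 3.4e-04), the endocytic receptor Mrc2 (4.58, SE 0.93, adjusted p = 0.0014) and the integrin subunit Itga1 (3.21, SE 0.77, adjusted p = 0.0059). Mrc2 also rose in basal cells (1.44, SE 0.38, adjusted p = 0.040), and Ddr2 in LP (1.77, SE 0.59, adjusted p = 0.046). Of 13 tested proteases and inhibitors 3 rose in ML, among them Mmp2 (2.97, SE 0.73, adjusted p = 0.0094) and the protease inhibitor Timp3 (4.01, SE 0.69, adjusted p = 5.0e-04).

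Of 18 other basement membrane genes, 8 rose in ML, and the list's median log2 fold change was 1.5. Lama3, the alpha chain of laminin-332, had 83.2, 47.9 and 53.5 CPM in ML KO, against 5.54, 4.09 and 6.16 CPM in ML WT (log2 fold change 3.53, SE 0.36, adjusted p = 8.0e-07). In LP it went the other way, with 24.4, 20.4 and 11.5 CPM in KO, against 186, 149 and 94.1 CPM in WT (log2 fold change -2.93, SE 0.33, adjusted p = 1.9e-05). KO was above WT in ML and below it in LP, each without overlap. Lama4, a laminin alpha chain, rose in ML (5.15, SE 0.52, adjusted p = 7.1e-07) and in LP (1.11, SE 0.37, adjusted p = 0.049). In LP the list had 1 riser and 2 fallers of 18, and in basal cells 1 riser (Smoc2, 1.56, SE 0.40, adjusted p = 0.031). These counts are near the shares over all genes (8.28% and 6.63% in LP, 2.96% higher in basal cells). Of 13 TGF-beta pathway genes, 3 rose in ML, where 11.8% of all genes did. Ccn2, a matricellular target of TGF-beta, had 341, 154 and 140 CPM in ML KO, against 2.53, 4.09 and 1.71 CPM in ML WT (log2 fold change 6.29, SE 0.43, adjusted p = 4.8e-09). The ligand Tgfb2 rose by 3.93 (SE 0.54, adjusted p = 3.5e-05). In LP Ccn2 rose (1.30, SE 0.32, adjusted p = 0.012) and the receptor Tgfbr1 fell (-1.13, SE 0.28, adjusted p = 0.012), and in basal cells the inhibitor Smad7 fell (-0.96, SE 0.25, adjusted p = 0.033). Several of these genes are also basal transcripts, and the basal marker sums given above for ML KO apply here as they do to the collagens.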

How the data were processed

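The authors deposited whole-number read counts per gene, made with featureCounts on mm10, per the submitters' processing notes, from total RNA libraries prepared with the miRNeasy micro and TruSeq RNA v2 kits, per the labels' protocols. The labels and headers name no aligner, annotation, strand setting or version. Gene lengths in the deposited table gave counts per kilobase. The series-wide table equalled all 18 single-library files, and 0 columns lacked a sample. Of 27179 identifiers, 25275 matched a symbol, and the 1904 others held 1.6% of counts. Genes were filtered with filterByExpr, leaving 16466, and scaled with TMM. edgeR 4.0.16 in R 4.3.3 fitted all 18 libraries with 1 mean per group (estimateDisp, then glmQLFit with bias-adjusted deviances and robust), as a quasi-likelihood test of 9 comparisons with Benjamini-Hochberg adjustment. The script was tested on simulated data. Counting intervals and floors (3 counts over a group) cover counting error only.

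Replicates of a group differed beyond sampling noise (chi-square per degree of freedom 22.6 to 204). They are separate mice, per the labels. Same-mouse libraries deviated together (r 0.0949 to 0.334, over 0.1 in 17 of 18 pairs), and the mouse number comes from the labels, so the mouse was a block in an alternative for contrasts across populations. Values in every library are given for collagens past the threshold (up to 8 per population and 5 per interaction, by p), for the type IV pairs, and for the leading collagen per class; up to 4 genes were named per pathway list, except that some single genes of the lists are not reported here. The members and lists were chosen with earlier results of these data known. Alternatives were RLE scaling, no filter, the earlier edgeR quasi-likelihood method (added after seeing the data), DESeq2, limma voom, the compared libraries only, thinning to 1 depth, a replicate block, and leaving out each library.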

Additional observations from a re-analysis of the deposited data

Results flagged for a closer look

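The collagens given here are those whose genotype effect (KO over WT, log2) differed between 2 populations by an edgeR interaction test with adjusted p under 0.05. No cause was tested. In LP minus basal cells the differences were 4.48 for Col6a2, -6.13 for Col8a1 and -3.03 for Col9a1.

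In LP minus ML, 15 collagens had a more negative effect in LP. Type IV and VII genes were Col4a2 (-3.44), Col4a5 (-1.71), Col4a6 (-3.45) and Col7a1 (-2.36). FACITs were Col9a1 (-3.59), Col9a2 (-4.33), Col9a3 (-5.31), Col12a1 (-7.95), Col14a1 (-5.48) and Col16a1 (-3.89). The others were Col11a1 (-5.79), Col18a1 (-3.23), Col23a1 (-5.34), Col25a1 (-5.81) and Col27a1 (-3.56).

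In ML minus basal cells, 15 collagens had a more positive effect in ML. These were Col4a2 (3.73), Col4a6 (3.10), Col5a1 (3.00), Col5a2 (4.07), Col6a2 (3.68), Col6a4 (4.89), Col7a1 (2.20), Col9a2 (5.39), Col9a3 (4.83), Col12a1 (7.77), Col14a1 (7.16), Col16a1 (3.42), Col18a1 (2.86), Col25a1 (6.21) and Col27a1 (4.91). Col8a1 (-4.87) and Col8a2 (-3.27) went the other way. Values for Col6a4, Col12a1 and Col23a1 rest on 3 counts or fewer in ML WT and depend on the prior count of the fit.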

How the results depend on the processing

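No named result changed direction under any of the alternatives, and 53 of the 66 collagen calls in KO against WT and in the interactions were kept under every one of them, as were 68 of the 80 calls between WT populations. The ML count of 24 ran from 21 to 24 when single libraries were left out and from 24 to 25 otherwise. The smaller counts moved. In basal cells (2 called) the count was 1 with the earlier edgeR method (chosen after seeing the data), 5 with DESeq2, 1 with the compared libraries only, 1 with thinning, 4 with the replicate block, and 1 to 5 leaving out a library. In LP (5 called) it was 10 with DESeq2, 3 with limma voom, 2 with the compared libraries only, 8 with the replicate block, and 3 to 7 leaving out a library. For LP minus basal cells (3 called) it was 6 with DESeq2, 8 with the mouse as replicate block, and 3 to 5 leaving out a library. The causes were not tested. For KO against WT the shared number is only a number: deviations of same-numbered libraries of different mice had r between -0.0977 and 0.258, and 5 of 27 such r were over 0.1. The block moved no other count by over 1.5 times. With 3 mice per group and 5973389 to 39194603 counts per library, collagens under about 1 CPM rest on few reads.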
